A study of Mus musculus with 24 samples.

Results

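The 7 genes *Hspa5*, *Ddit3*, *Atf4*, *Xbp1*, *Herpud1*, *Dnajb9* and *Trib3* belong to the unfolded protein response (UPR), and they were taken by symbol from the 16730 genes of the deposited tables. Their transcripts were measured in epididymal white adipose tissue (eWAT) of 24 male mice by 3′-tag RNA sequencing, which counts reads from the 3′ ends of polyadenylated transcripts. The mice formed 4 groups of 6. All carried loxP-flanked *Lama4* alleles, which encode the laminin α4 chain of the basement membrane around adipocytes and vessels, on a C57BL/6J background. Mice without Cre served as controls (*Lama4* fl/fl, called fl/fl below), and littermates with Cre driven by the adiponectin promoter had *Lama4* deleted in adipocytes (*Lama4* AKO, called AKO below). Each genotype was fed either a breeder chow (chow below) or a high-fat diet (HFD, 45% fat) for 20 weeks. By the study's figure legends, chow ran from weaning until 24 weeks of age, and HFD began at 6 weeks of age. The diet groups may therefore also differ in age at collection, which cannot be told apart from the diet. Cre of this kind acts in adipocytes, so the vascular, immune and stromal cells of the pad kept *Lama4*. The comparisons ask how the diet, the deletion and their combination changed the eWAT transcriptome, and here what they did to the UPR genes.

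The UPR answers an excess of unfolded protein in the lumen of the endoplasmic reticulum (ER). Its sensors are IRE1, which splices *Xbp1* mRNA into the form that encodes an active factor, PERK, which phosphorylates eIF2α and so favours translation of *Atf4*, and ATF6, which is cut in the Golgi to release a transcription factor. Chaperones and degradation factors are induced by ATF6 and XBP1, whereas ATF4 induces *Ddit3*, which encodes CHOP, and *Trib3*. In obesity, ER stress of adipose tissue has been linked to inflammation and insulin resistance. The libraries measured the amount of each transcript, and neither *Xbp1* splicing nor *Atf4* translation can be read from them.

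The 7 genes lie apart in the genome (GRCm38, with identical positions in release 21 of the GENCODE annotation). *Hspa5* spans chr2:34771970-34777547, *Ddit3* chr10:127290774-127296288, *Atf4* chr15:80255184-80257541, *Xbp1* chr11:5520659-5525893 and *Herpud1* chr8:94386438-94395377, all on the forward strand. *Dnajb9* spans chr12:44205559-44210326 and *Trib3* chr2:152337422-152344032, both on the reverse strand. The promoters of *Hspa5*, *Herpud1* and *Trib3* are shown because they carry the letters of elements known from the UPR. Each sequence runs 5′ to 3′ on the strand of the gene, from 250 bases before to 50 bases after the start annotated by RefSeq (GRCm38.p6), and capitals mark the matched elements. The windows are chr2:34771840-34772139 on the forward strand for *Hspa5*, chr8:94386179-94386478 on the forward strand for *Herpud1* and chr2:152344011-152344310 on the reverse strand for *Trib3*.

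Hspa5: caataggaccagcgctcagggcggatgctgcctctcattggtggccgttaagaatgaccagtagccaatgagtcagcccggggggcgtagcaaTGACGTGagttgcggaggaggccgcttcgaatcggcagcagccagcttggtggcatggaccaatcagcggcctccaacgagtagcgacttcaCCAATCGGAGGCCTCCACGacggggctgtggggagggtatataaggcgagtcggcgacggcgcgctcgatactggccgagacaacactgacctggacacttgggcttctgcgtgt

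Herpud1: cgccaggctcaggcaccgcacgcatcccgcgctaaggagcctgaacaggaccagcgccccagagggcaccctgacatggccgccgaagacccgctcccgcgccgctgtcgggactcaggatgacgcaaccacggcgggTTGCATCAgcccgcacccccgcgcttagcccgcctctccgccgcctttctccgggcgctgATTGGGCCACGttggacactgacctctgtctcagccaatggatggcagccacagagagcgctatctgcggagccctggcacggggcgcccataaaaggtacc

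Trib3: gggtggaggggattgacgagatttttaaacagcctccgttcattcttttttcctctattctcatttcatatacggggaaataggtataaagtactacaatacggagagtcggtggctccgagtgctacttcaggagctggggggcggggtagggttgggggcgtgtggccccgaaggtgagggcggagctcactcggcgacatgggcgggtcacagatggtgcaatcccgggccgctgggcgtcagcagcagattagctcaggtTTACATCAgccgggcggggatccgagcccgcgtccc

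The capitals of the *Hspa5* window mark the core of the UPR element (UPRE, TGACGTG) at -157 to -151 and the ER stress response element (ERSE, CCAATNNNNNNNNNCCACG) at -65 to -47 from the start. The *Herpud1* window held ERSE-II (ATTGGNCCACG) at -52 to -42, and, on the opposite strand at -112 to -105, the core of the C/EBP-ATF response element (CARE, TGATGNAA) that ATF4 can bind. The *Trib3* window held that core on the opposite strand at 14 to 21, within the transcribed part. ERSE was found in 0.119% of 32851 promoters of this length searched on both strands, ERSE-II in 0.0365%, the UPRE core in 2.01% and the CARE core in 3.97%. The letters of these 4 elements were not found in the windows of *Ddit3*, *Atf4*, *Xbp1* and *Dnajb9*. The shorter parts CCAAT and CCACG, which lie inside ERSE and, with CCAAT on the opposite strand, inside ERSE-II, occur in 37.4% and 32.8% of promoters. These matches describe the windows and say nothing of binding.

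All 7 genes passed the filter on low counts. Over the 24 libraries, *Hspa5* had 7169 to 22148 counts, *Atf4* 1495 to 12034, *Xbp1* 728 to 2339, *Herpud1* 436 to 1095, *Ddit3* 362 to 1450, *Dnajb9* 142 to 589 and *Trib3* 36 to 162. Levels are given below as CPM, the counts of a gene relative to the library size scaled by the TMM method, and differences as log2 fold changes from edgeR with their standard error (SE). Intervals are 2 SE on each side. All 24 mice were used unless 19 are named, a set without 5 libraries that the study appears to have left out (described with *Atf4* below).

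**Figure D1:**
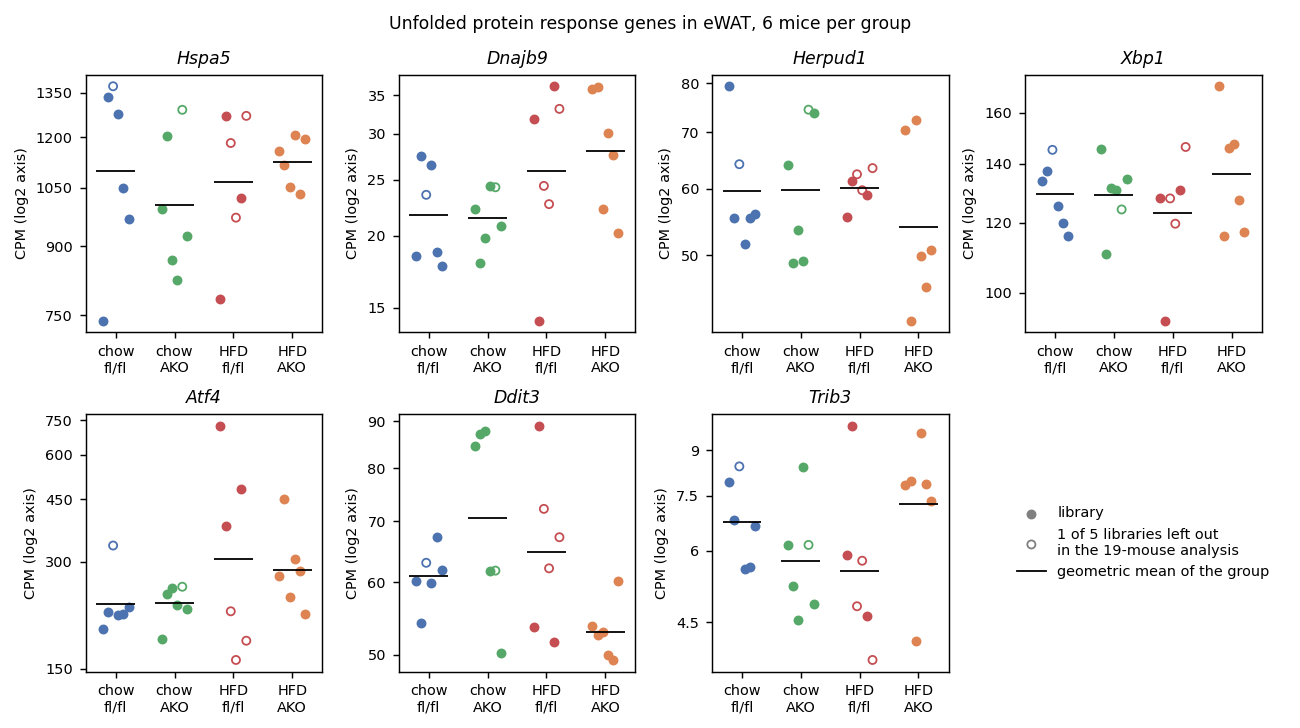
Level of each of the 7 UPR genes in CPM (vertical log2 axis, scaled for each gene) in the 6 mice of each group (horizontal axis); lines are geometric means, and open circles are the 5 libraries left out of the 19-mouse analysis. In HFD fl/fl mice *Atf4* ran from 159 to 725 CPM, whereas every gene's groups overlapped.

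None of the 7 UPR genes passed the study's criteria (p of at most 0.001, a fold of at least 1.5 and at least 2 CPM in the higher group) in any of the 6 comparisons made over all 24 mice. For comparison, 0.173% of the 15020 genes tested passed between HFD and chow in fl/fl mice, 4.12% between HFD and chow in AKO mice, 0.113% between AKO and fl/fl mice on chow and 0.173% between AKO and fl/fl mice on HFD. A further 0.386% passed for the diet by genotype interaction, and 2.22% for the diet effect averaged over genotypes. Shares this low would leave 7 genes without a call in most comparisons, so this count does not set the UPR genes apart.

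At an unadjusted p under 0.05, the shares of all genes in the same order were 9.01%, 39.8%, 5.85%, 14.8%, 15.6% and 35.5%. Of the UPR genes, 1 reached this level between diets in fl/fl mice (*Atf4*), 2 between diets in AKO mice (*Ddit3* and *Dnajb9*), 0 between genotypes on chow, 1 between genotypes on HFD (*Ddit3*), 1 for the interaction (*Ddit3*) and 2 for the averaged diet effect (*Atf4* and *Dnajb9*). An adjusted p (Benjamini-Hochberg over all genes, edgeR) of at most 0.05 was reached by *Ddit3* between diets in AKO mice, where 22.1% of all genes reached it, and by no other UPR gene in any comparison. The diet comparisons within fl/fl and within AKO mice use different mice, and the averaged effect shares its libraries with both. The 3 *Ddit3* results share the HFD AKO mice and are not independent of each other.

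**Figure D2:**
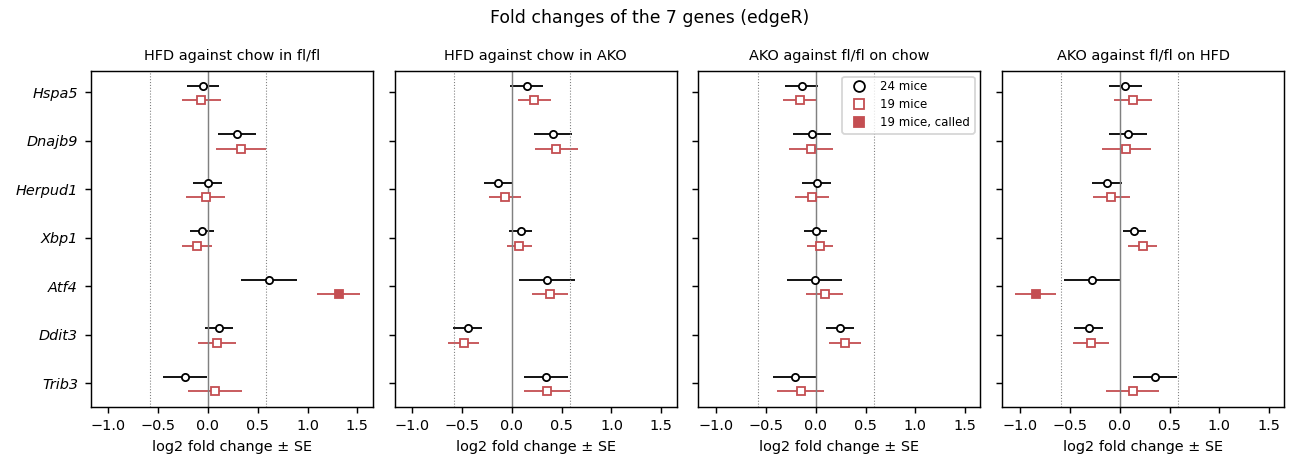
Log2 fold change of each of the 7 UPR genes (vertical axis lists the genes, bars are 1 SE) in 4 comparisons (panels); dotted lines mark a fold of 1.5 in either direction. Black circles are 24 mice and red squares 19 mice, filled where the study's criteria were passed, which in these panels was *Atf4* between diets in fl/fl mice (1.31) and between genotypes on HFD (-0.84).

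*Hspa5* encodes BiP, the main HSP70 chaperone of the ER lumen, which also holds the UPR sensors inactive. Its lowest, median and highest values were 739, 1162 and 1374 CPM in chow fl/fl mice, 822, 958 and 1291 in chow AKO mice, 783, 1102 and 1270 in HFD fl/fl mice and 1034, 1137 and 1208 in HFD AKO mice. The groups overlapped throughout, and HFD AKO mice had the narrowest range. The difference between HFD and chow was -0.05 (interval -0.38 to 0.27) in fl/fl mice and 0.15 (interval -0.18 to 0.47) in AKO mice on the log2 scale. Changes of *Hspa5* within these intervals could not be resolved with 6 mice in each group.

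*Dnajb9* encodes ERdj4, an ER co-chaperone of BiP and a target of spliced XBP1. Its lowest, median and highest values were 17.7, 21.1 and 27.5 CPM in chow fl/fl mice and 18.0, 21.5 and 24.4 in chow AKO mice, against 14.3, 28.1 and 36.3 in HFD fl/fl mice and 20.2, 28.9 and 36.1 in HFD AKO mice. Both HFD medians lay above the highest chow value, yet 3 of 6 HFD fl/fl mice and 2 of 6 HFD AKO mice fell within the chow range or below it. The averaged diet difference was 0.35 ± 0.14 (SE) on the log2 scale, a fold of 1.28, with an adjusted p of 0.0738 in edgeR. Within AKO mice it was 0.41 ± 0.19 with an adjusted p of 0.110, and within fl/fl mice 0.29 ± 0.19 with an adjusted p of 0.662. The averaged difference stayed at an unadjusted p under 0.05 in all 24 leave-one-out fits, from 0.31 to 0.42, but not with limma-voom in the 19 mice (0.33). Within AKO mice the diet difference reached that level in 17 of 24 leave-one-out fits. There it missed that level with limma-voom in all mice (0.39) and in the 19 mice (0.42). Between genotypes the values were -0.04 on chow and 0.08 on HFD, with adjusted p-values of 0.989 and 0.842.

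*Herpud1* encodes a membrane protein of ER-associated degradation (ERAD). Its lowest, median and highest values were 51.6, 55.7 and 79.4 CPM in chow fl/fl mice, 48.9, 58.8 and 74.4 in chow AKO mice, 55.6, 60.5 and 63.4 in HFD fl/fl mice and 41.8, 50.3 and 72.4 in HFD AKO mice. All 6 HFD fl/fl values lay inside the range of chow fl/fl mice. The largest of its 6 differences was -0.14 ± 0.15, between HFD and chow in AKO mice. All 6 differences of *Herpud1* were smaller than their SE.

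*Xbp1* encodes the transcription factor that IRE1 activates by splicing. Its lowest, median and highest values were 116, 130 and 145 CPM in chow fl/fl mice, 111, 131 and 145 in chow AKO mice, 92.9, 128 and 146 in HFD fl/fl mice and 116, 137 and 172 in HFD AKO mice. It was the steadiest of the 7, with a within-group SD of 0.180 on the log2 scale, against a median of 0.422 over all genes tested. The diet difference was -0.06 ± 0.12 in fl/fl mice and 0.09 ± 0.12 in AKO mice. Intervals of -0.30 to 0.18 and -0.15 to 0.33 therefore bound the change of total *Xbp1* transcript, spliced and unspliced together.

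*Trib3* encodes a pseudokinase that binds AKT and is induced by ATF4 and CHOP. It was thinly counted, and its lowest, median and highest values were 5.59, 6.71 and 8.44 CPM in chow fl/fl mice, 4.53, 5.68 and 8.43 in chow AKO mice, 3.86, 5.28 and 9.95 in HFD fl/fl mice and 4.18, 7.85 and 9.65 in HFD AKO mice. In HFD AKO mice 5 of 6 values lay between 7.34 and 9.65 CPM and the remaining one at 4.18. The interaction, which compares the diet difference in AKO mice with that in fl/fl mice, was 0.57 ± 0.31 with an adjusted p of 0.361 in edgeR. It reached an unadjusted p under 0.05 in 3 of 24 leave-one-out fits, among them 0.79 without HFD fl/fl replicate 2, the highest of its group. In the 19 mice it was 0.28 ± 0.36.

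*Ddit3* encodes CHOP, a transcription factor that acts downstream of ATF4 and promotes cell death when ER stress persists. Its lowest, median and highest values were 54.1, 61.1 and 67.2 CPM in chow fl/fl mice, 50.3, 73.2 and 87.9 in chow AKO mice, 51.6, 64.7 and 89.1 in HFD fl/fl mice and 49.4, 52.8 and 60.2 in HFD AKO mice. In chow AKO mice 3 values lay between 84.7 and 87.9 CPM and the other 3 between 50.3 and 61.8. All 6 HFD AKO mice lay at or below 60.2 CPM, and the ranges of chow and HFD AKO mice overlapped.

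Between diets in AKO mice *Ddit3* was lower on HFD by -0.44 ± 0.14 on the log2 scale (a fold of 0.735, interval -0.73 to -0.16), with an adjusted p of 0.0330 in edgeR. This passed an adjusted threshold of 0.05 and missed the study's criteria for p and fold. Leaving out each mouse in turn gave -0.54 to -0.38, at an unadjusted p under 0.05 in 24 of 24 fits, and the adjusted p ran from 0.000417 to 0.0518 over the other settings tried. An exact permutation test of the 6 against 6 mice (two-sided) gave p = 0.0238 and 0.343 after adjustment over the 28 such tests of the 7 genes and 4 group pairs. None of these tests passed after adjustment. The smallest p they can give is 0.00216, at which 1 test alone among the 28 could not reach an adjusted p of 0.05, so the lack of a pass says little. In bulk tissue, fewer cells of a type and less RNA of a gene per cell cannot be told apart. In the same comparison 9 of 10 adipocyte markers and 9 of 9 endothelial markers were lower at an unadjusted p under 0.05 (median log2 differences -1.22 and -0.68), and of 10 macrophage markers 5 were higher and 1 lower (median 1.06). Their part in the *Ddit3* difference was not tested.

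The sign of the diet difference of *Ddit3* was opposite in fl/fl mice, at 0.11 ± 0.14 (interval -0.17 to 0.39). The interaction was -0.55 ± 0.20, with an adjusted p of 0.257 in edgeR. It stayed at an unadjusted p under 0.05 in all 24 leave-one-out fits, from -0.67 to -0.45, and missed it with limma-voom in the 19 mice (-0.50). On HFD, AKO mice were -0.31 ± 0.14 from fl/fl mice, with an adjusted p of 0.318. This difference reached an unadjusted p under 0.05 in 19 of 24 leave-one-out fits. Without HFD fl/fl replicate 2, which had the highest *Ddit3* of all mice, the value was -0.21 and missed that level. In the 19 mice this difference was -0.29 ± 0.18 and also missed that level. The 3′ end of *Ddit3* overlaps that of *Mars1*, which lies on the opposite strand, by 68 bases, and whether the counting used strand is not given in the sources used here. *Mars1* had 11509 counts in all against 20485 for *Ddit3*, and their levels within groups correlated at r = 0.148 over the 24 libraries, given as a description.

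*Atf4* encodes the transcription factor of the integrated stress response, which is controlled mainly by translation. Its lowest, median and highest values were 195, 215 and 333 CPM in chow fl/fl mice, 182, 236 and 255 in chow AKO mice, 159, 297 and 725 in HFD fl/fl mice and 214, 278 and 449 in HFD AKO mice. In HFD fl/fl mice the highest value was 4.56-fold the lowest, and its within-group SD was the largest of the 7 genes and above that of 60.3% of all genes. HFD fl/fl replicates 1, 2 and 5 had 725, 377 and 480 CPM, all above every chow mouse. Replicates 3, 4 and 6 of the same group had 218, 159 and 180 CPM, below the level of most chow mice. The diet difference in fl/fl mice over all 24 mice was 0.62 ± 0.28 on the log2 scale (a fold of 1.53, interval 0.06 to 1.18), with an adjusted p of 0.533 in edgeR. With limma-voom, the study's tool, it was 0.41, with quality weights 0.15, and an exact permutation test gave p = 0.312, so the unadjusted level of 0.05 was lost in each. It ranged from 0.28 to 0.77 when each mouse was left out, and reached an unadjusted p under 0.05 in 16 of 24 such fits. Leaving out HFD fl/fl replicate 1 gave 0.28, which did not reach that level. In AKO mice the difference was 0.35 ± 0.28 (adjusted p = 0.351), and averaged over genotypes 0.48 ± 0.20 (adjusted p = 0.0899).

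*Atf4* depended on which mice were kept. The study left out outlying mice, which the labels do not mark, and its 19 mice were inferred as all but chow fl/fl replicate 3, chow AKO replicate 5 and HFD fl/fl replicates 3, 4 and 6. In these 19 mice *Atf4* was higher on HFD in fl/fl mice by 1.31 ± 0.21 (a fold of 2.48), with an adjusted p of 0.000419 in edgeR, and passed the study's criteria, as did 11.8% of the 14863 genes tested. On HFD it was lower in AKO than in fl/fl mice by -0.84 ± 0.20, with an adjusted p of 0.128, and passed the criteria, as did 0.565% of genes. Over all 24 mice this difference was -0.28 ± 0.28 and -0.08 with limma-voom, and it turned to 0.21 with quality weights and to 0.06 without HFD fl/fl replicate 1, so its direction depended on the mice and weights used. The averaged diet difference was 0.85 ± 0.14 with an adjusted p of 0.000101 and also passed, as did 21.2% of genes. The interaction was -0.93 ± 0.28 in the 19 mice, with an adjusted p of 0.177, and -0.27 ± 0.39 in all 24. All 3 HFD fl/fl mice with low *Atf4* are among the 5 left out, so these values rest on 3 HFD fl/fl mice at 377 to 725 CPM. The other 6 UPR genes did not pass the criteria in the 19 mice in any comparison.

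Within HFD fl/fl mice the *Atf4* level went with the cell markers of each library. HFD fl/fl replicates 1, 2 and 5 had 10955, 14382 and 18345 CPM summed over 10 adipocyte markers, while replicates 3, 4 and 6 had 31138, 74405 and 59643. For 10 macrophage markers the sums were 16761, 16121 and 10477 CPM against 7208, 2428 and 3249. For 9 endothelial markers they were 313, 456 and 447 CPM against 642, 915 and 767. For 12 B and plasma cell markers they were 12280, 4023 and 7668 CPM against 1672, 923 and 1266. The mice with more *Atf4* transcript had lower adipocyte and endothelial sums and higher macrophage and B and plasma cell sums. Within HFD fl/fl mice the B and plasma cell sum had r = 0.996 with *Atf4*, but r was -0.24 in chow AKO and -0.07 in HFD AKO mice. By group, the adipocyte sum ran from 26689 to 83925 CPM in chow fl/fl mice, 19386 to 66587 in chow AKO mice, 10955 to 74405 in HFD fl/fl mice and 10768 to 32229 in HFD AKO mice. The macrophage sum ran from 1563 to 12471, 2243 to 11291, 2428 to 16761 and 8279 to 17604 CPM in the same order, and the endothelial sum from 469 to 895, 502 to 1084, 313 to 915 and 348 to 733. All markers of these lists passed the filter on low counts.

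**Figure D3:**
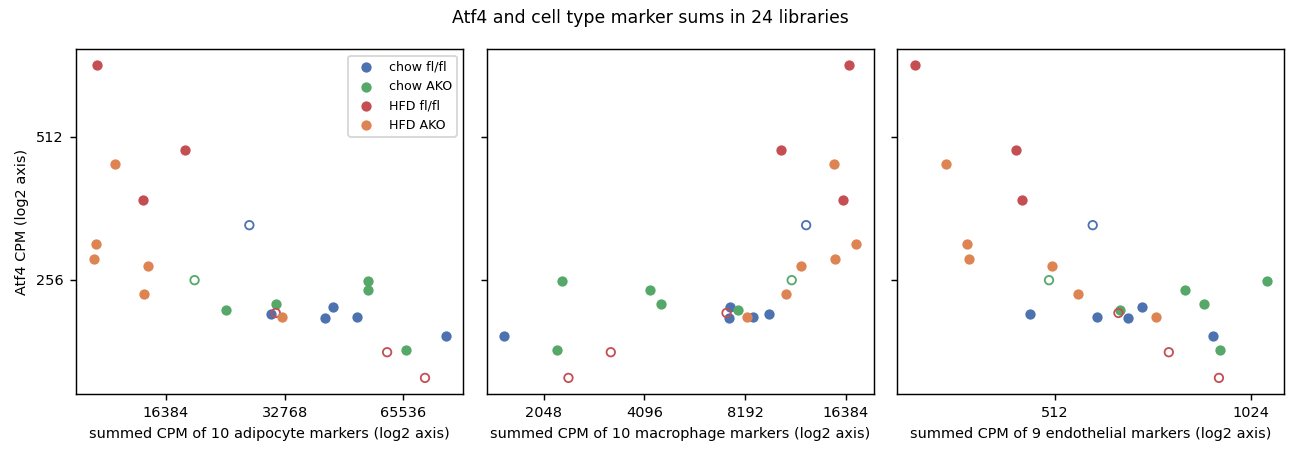
*Atf4* in CPM (vertical log2 axis) against the summed CPM of adipocyte, macrophage and endothelial markers (horizontal log2 axes, left to right) in 24 libraries coloured by group; open circles are the 5 libraries left out of the 19-mouse analysis. *Atf4* is high where adipocyte and endothelial markers are low and macrophage markers high, within groups at r = -0.777, -0.768 and 0.674.

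With the group means removed, *Atf4* correlated with the adipocyte sum at Pearson's r = -0.777 over the 24 libraries (rho = -0.743; within-group permutation, adjusted p = 0.00840 over 70 relations). The values for the macrophage sum, the endothelial sum, immediate early genes and the first principal component of all genes were r = 0.674, -0.768, 0.699 and 0.783, with adjusted p-values from the same permutation test of 0.0223, 0.00595, 0.0223 and 0.00595. All 5 relations had the same sign in each of the 4 groups and also passed with Spearman's rho. In the 19 mice the same 5 values of r were -0.454, 0.312, -0.625, 0.507 and 0.414 in the order adipocyte, macrophage, endothelial, immediate early and principal component, and none passed. None of the other relations passed over 24 mice, including those with B and plasma cell, mesothelial, stromal and cytosolic heat shock genes and the library total. The part of cell composition in the *Atf4* differences was not tested.

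The UPR genes did not move as one unit from mouse to mouse. Of the 21 pairs, 1 passed a within-group permutation test after adjustment. *Ddit3* and *Dnajb9* were inversely related, with r = -0.585 over 24 libraries (permutation, adjusted p = 0.0353), negative in 4 of 4 groups. Spearman's rho was -0.521 with an adjusted permutation p of 0.171, and without the 2 libraries farthest on *Ddit3* r was -0.416. No pair passed in 11 of the 24 leave-one-out sets or in the 19 mice, where r for this pair was -0.631. *Xbp1* and its target *Dnajb9* were related at r = 0.613 (permutation, adjusted p = 0.0981), and *Xbp1* and *Herpud1* at r = 0.479 (permutation, adjusted p = 0.155), both positive in 4 of 4 groups and neither past the threshold. *Hspa5* and *Herpud1*, whose promoters hold ERSE and ERSE-II, had r = -0.05.

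**Figure D4:**
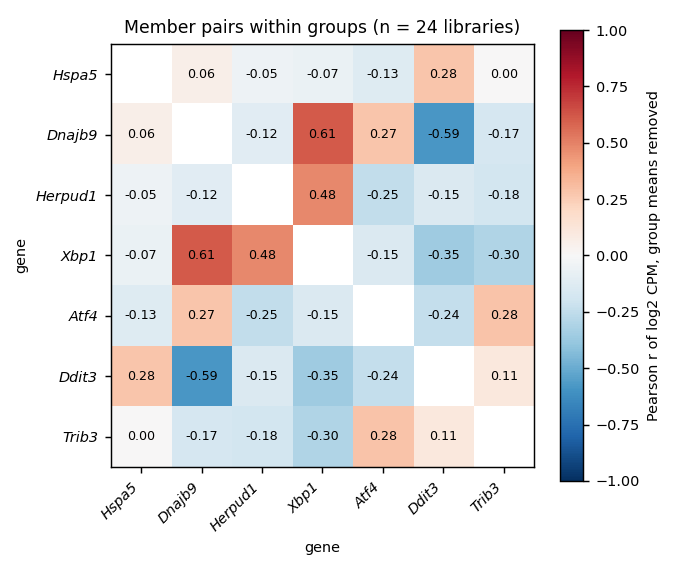
Pearson's r between each pair of UPR genes (both axes) over 24 libraries with group means removed; the colour scale runs from -1 to 1. The strongest values are 0.61 for *Xbp1* with *Dnajb9* and -0.59 for *Ddit3* with *Dnajb9*.

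Across all genes, the closest companions of each UPR gene are given as a description, as r of log2 CPM within groups over the same 24 libraries. *Atf4* was followed most closely by *Rit1* (r = 0.96), *Rab11b*, *Tpgs1*, *Nsun2* and *Tfip11* (r = 0.95), and a wide share of the transcriptome went with it, as 0.05 of all genes had r under -0.76 with it and 0.05 had r over 0.76. The matching values were narrower for *Xbp1*, at -0.32 and 0.41, and for *Herpud1*, at -0.33 and 0.37. *Xbp1* was closest to *Icmt* (r = 0.81), *Arl6ip6*, *Tor1a*, *Wdr20* and *Kctd13*. *Dnajb9* was closest to *Ccnc* (r = 0.88), *Ppia*, *Xpot*, *1810037I17Rik* and *Anxa1*. *Ddit3* was closest to *Mfsd3* (r = 0.80), *Cgrrf1*, *Bloc1s1*, *Mrpl11* and *Them4*. *Herpud1* was closest to *Cbx7* (r = 0.84), *Letm2*, *Bach2*, *Polrmt* and *Ddx17*, and *Trib3* to *Klhl21* (r = 0.70), *Trpv4*, *Pgpep1*, *Gaa* and *Mlph*. *Hspa5* was closest to *Sec61b* (r = 0.82), a subunit of the ER translocon, then *Rpl38-ps2*, *Rps27a-ps1*, *Gm4332* and *Atp6v1g1*, of which the pseudogenes can take reads from near-identical copies. No UPR gene was among the 5 closest of another.

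The wider pathway was read from 98 further genes in 5 lists, of which 96 were tested. Between diets in fl/fl mice 7 were higher and 1 lower at an unadjusted p under 0.05 (8.33%, against 9.01% of all genes), and in AKO mice 22 were higher and 19 lower (42.7%, against 39.8%). The counts were 3 higher and 2 lower (5.21%) between genotypes on chow, 7 and 9 (16.7%) on HFD, 3 and 9 (12.5%) for the interaction and 25 and 13 (39.6%) for the averaged diet effect. These shares were near those of all genes in each comparison. The medians of the log2 differences lay between -0.03 and 0.05 in all 6 comparisons.

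**Figure D5:**
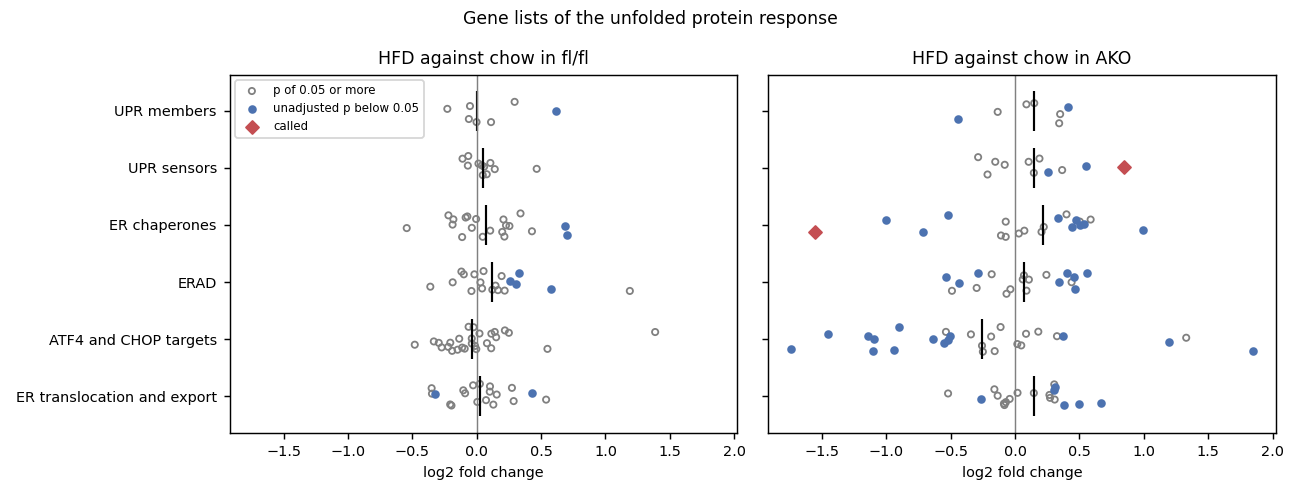
Log2 fold change (horizontal axis) of each gene (points) of the 7 UPR genes and of the 5 further lists, between HFD and chow in fl/fl mice (left) and in AKO mice (right); ticks are list medians, filled blue points reached an unadjusted p under 0.05 and red diamonds passed the study's criteria. In AKO mice the median of the ATF4 and CHOP targets was -0.26 and that of the ER chaperones 0.21, and the diamonds are *Pdia4* (-1.55) and *Mbtps2* (0.84).

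Among the 11 sensors and their partners, 3 were higher on HFD in AKO mice at an unadjusted p under 0.05 and none lower, with a list median of 0.15 on the log2 scale. This is a smaller share than the 39.8% of all genes that reached this level in either direction. *Mbtps2*, the site-2 protease that cuts ATF6, rose by 0.84 ± 0.22 with an adjusted p of 0.0190 in edgeR and passed the study's criteria. *Mbtps1*, the site-1 protease, had 0.26 and an adjusted p of 0.0543, and *Ern1*, which encodes IRE1α, 0.55 and 0.0679. In fl/fl mice none of the 11 reached an unadjusted p under 0.05, and the nearest was *Eif2ak3*, which encodes PERK, at 0.47 ± 0.33. For *Mbtps2* the interaction was 0.96 ± 0.30 with an adjusted p of 0.239. Between genotypes on HFD, 3 of the 11 were higher in AKO mice at an unadjusted p under 0.05 and none lower. That level was reached by 14.8% of all genes. *Ern1* was 0.61 ± 0.22 and *Mbtps2* 0.53 ± 0.21 there, with adjusted p-values of 0.293 and 0.297 in edgeR, and no sensor passed the study's criteria.

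Of 20 ER chaperones and folding enzymes, 6 were higher and 4 lower at an unadjusted p under 0.05 on HFD in AKO mice. That level was reached by 39.8% of all genes, and the list median was 0.21. *Pdia4*, a protein disulfide isomerase, fell by 1.55 on the log2 scale (SE 0.36, adjusted p = 0.0150 in edgeR) and passed the criteria, as it did for the averaged diet effect at -1.05 ± 0.25. *Dnajb11*, the BiP co-chaperone ERdj3, had 0.54 and an adjusted p of 0.0238, and the prolyl isomerase *Fkbp2* 0.47 and 0.0316. In fl/fl mice *Txndc5*, a disulfide isomerase, had 0.68 ± 0.22 and an adjusted p of 0.448, and *Sdf2l1* 0.70 ± 0.33 and 0.539. On HFD, *Pdia4* was -0.96, *Hyou1* 0.47 and *Hsp90b1* -0.74 in AKO against fl/fl mice, with adjusted p-values of 0.293, 0.300 and 0.331 in edgeR. The chaperones thus had members on both sides of 0 in the AKO diet comparison and between genotypes on HFD.

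Of 19 ERAD genes, 5 were higher and 3 lower at an unadjusted p under 0.05 on HFD in AKO mice, where 39.8% of all genes reached it. *Sel1l*, the partner of the ubiquitin ligase HRD1, had 0.46 ± 0.14 (adjusted p = 0.0280 in edgeR), the lectin *Erlec1* -0.43 ± 0.14 (adjusted p = 0.0329) and *Herpud2*, the paralogue of *Herpud1*, 0.40 ± 0.13 (adjusted p = 0.0344). In fl/fl mice 4 were higher at that unadjusted level, which 9.01% of all genes reached. Among them were *Edem1* at 0.31 and *Os9* at 0.33, each with an adjusted p of 0.516. *Derl2* was lower in AKO than in fl/fl mice on HFD by -0.37 ± 0.10, with an adjusted p of 0.291. None of the 19 passed the criteria in any comparison.

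Of 27 ATF4 and CHOP targets tested, 11 were lower and 3 higher at an unadjusted p under 0.05 on HFD in AKO mice. The list median was -0.26. Of all 15020 genes, 3239 were lower and 2737 higher at the same level in this comparison, with a median of -0.0031. *Stc2*, a secreted glycoprotein, had -1.74 ± 0.49, the seryl-tRNA synthetase *Sars* -1.10 ± 0.31 and *Vegfa* -1.45 ± 0.41, with adjusted p-values of 0.0234, 0.0235 and 0.0238 in edgeR, and none passed the criterion on p. The 3 higher were the transcription factor *Atf3* (a fold of 2.29), the stress cytokine *Gdf15* (3.59) and the alanyl-tRNA synthetase *Aars* (1.30). In fl/fl mice none of the 27 reached an unadjusted p under 0.05. For the interaction 6 were lower and none higher at that level, which 15.6% of all genes reached. *Stc2* was at -1.82, *Psph* at -1.05 and *Vegfa* at -1.44, with adjusted p-values of 0.257, 0.263 and 0.271. *Slc7a5*, a subunit of an amino acid transporter, was 1.26 ± 0.40 in AKO against fl/fl mice on chow with an adjusted p of 0.708. Adipocyte and endothelial markers were also lower on HFD in AKO mice, and their part in the differences of this list was not tested.

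Of 19 genes of ER translocation and export, 5 were higher and 1 lower at an unadjusted p under 0.05 on HFD in AKO mice. That level was reached by 39.8% of all genes. *Sec61a1*, the channel subunit of the translocon, had 0.67 ± 0.18 (adjusted p = 0.0219 in edgeR), the retrieval receptor *Kdelr2* 0.31 (adjusted p = 0.0413) and the coat protein *Sec23b* 0.50 (adjusted p = 0.0462). The small translocon subunit *Sec61b* was -0.35 between diets in fl/fl mice and 0.65 for the interaction, with adjusted p-values of 0.593 and 0.272. The signal peptidase subunit *Spcs1* was -0.39 in AKO against fl/fl mice on chow and 0.64 for the interaction, with adjusted p-values of 0.772 and 0.239.

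The libraries held 5579590 to 18764516 counts each. The first principal component of all genes carried 45.8% of the variance and the second 10.2%. No 2 libraries of a group agreed within counting noise. *Lama4* medians were 91.7 CPM in chow fl/fl, 113 in chow AKO, 78.7 in HFD fl/fl and 44.3 in HFD AKO mice, and AKO and fl/fl mice did not separate on chow (exact permutation, p = 0.524) or on HFD (exact permutation, p = 0.152). The deleted exon lies far upstream of the 3′ end that was counted, so these counts do not show its loss directly and do not settle the genotype. Whether the deletion changes the amount of the remaining transcript was not tested. For each library here the genotype rests on the labels. The study itself reported lower *Lama4* by quantitative PCR in eWAT of chow-fed AKO mice than in that of controls. Of 10 epididymis markers, 4 were used here, and their sum reached 32.8 CPM in chow and 0.164 CPM in HFD libraries.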

How the data were processed

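The authors sequenced 3′-tag libraries of eWAT and processed them with a QuantSeq pipeline and the Rsubread package. The deposited files hold raw gene counts and, separately, normalized signal, in which each library's counts were divided by 1 size factor (DESeq2 1.30 under R 4.0.3, per the labels). The deposited counts were analysed here, and the signal table gave symbols and positions only. The aligner settings and strand setting are not given in the sources used here.

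The fits kept the 15020 of 16730 genes that reached 1 CPM in 3 or more of the 24 libraries. Library sizes were scaled by TMM, 1 coefficient per group was fitted over all mice, and contrasts were tested with the quasi-likelihood test of edgeR 4.0.16 (R 4.3.3), with Benjamini-Hochberg adjustment over all genes tested. The study used limma-voom, which was run as an alternative (limma 3.58.1), as was DESeq2 1.42.0. For the level criterion the higher group had to average 2 CPM or more, as in the study's methods. The 19 mice were taken over from an earlier analysis of these data. Correlations used log2 CPM with a prior count of 2 after removal of group means, with 100000 permutations within groups (numpy 2.4.6, scipy 1.17.1). The scripts were tested on simulated data.

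The 7 genes and all gene lists were chosen with earlier results of these data known. The named list genes are the 3 of each list with the lowest p in each comparison, less 1 gene that is not reported here, and the companions the 5 with the highest r; *Atf3*, *Gdf15* and *Aars* were named after their values were seen, and so was *Mars1*. Replicates are separate mice. The replicate numbers do not pair mice across groups (median correlation of same-numbered mice 0.001 over 36 pairs, -0.010 for others). Counts limit the precision of *Trib3* most; the alternatives are given in the closing section.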

Additional observations from a re-analysis of the deposited data

Results flagged for a closer look

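*Atf4* in chow fl/fl replicate 3 stood above the other 5 mice of its group, with a gap to the nearest of 0.742 of the group's range on the log2 CPM scale (333 against at most 224 CPM). *Trib3* in HFD AKO replicate 3 stood below the other 5 mice of its group, with a gap of 0.671 of the range (4.18 against at least 7.34 CPM). Both exceeded Dixon's critical value for 6 samples. These were 2 of the 28 groups tested, and chance alone marks about 1 group in 20. Chow fl/fl replicate 3 is 1 of the 5 libraries left out of the 19-mouse analysis.

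The diet difference of *Ddit3* differed between genotypes at -0.55 on the log2 scale (edgeR interaction, at an unadjusted p under 0.05), as AKO mice had -0.44 and fl/fl mice 0.11. The adjusted p over all genes was 0.257, and 15.6% of all genes reached an unadjusted p under 0.05 for the interaction.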

How the results depend on the processing

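Over 24 mice none of the 7 genes passed the study's criteria in any of the 6 comparisons, nor in any leave-one-out fit. Dropping the criteria on fold and level and asking only for an unadjusted p under 0.05 gave 1 gene between diets in fl/fl mice, 2 in AKO mice, 1 between genotypes on HFD, 1 for the interaction and 2 for the averaged diet effect, and in the 19 mice, chosen after seeing the data, 1, 3, 1, 2 and 2, where 41.4%, 49.2%, 11.1%, 12.2% and 57.8% of all genes reached it. Between genotypes on HFD that 1 gene was *Ddit3* over 24 mice but *Atf4* in the 19. An adjusted p of at most 0.05 gave 1 in AKO mice between diets (*Ddit3*), and quality weights 1 for the interaction (*Ddit3* at -0.64), where they called 1358 of 15020 genes against 58. In the 19 mice 1 gene, *Atf4*, passed between diets in fl/fl mice, between genotypes on HFD and for the averaged effect, with edgeR (1.31, -0.84 and 0.85) and with limma-voom (1.26, -0.83 and 0.80); the cause was not tested, and the change leaves out 3 of 6 HFD fl/fl mice.

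The sign changed under at least 1 alternative for 17 of 42 gene values, 16 of which lay within 1 SE of 0. Between diets in fl/fl mice *Hspa5* was 0.011 and *Xbp1* 0.040 with quality weights; *Trib3* was 0.070 in the 19 mice and 0.029 with limma-voom in them; *Herpud1* was 0.012 with limma-voom and with the permutation test, 0.021 with DESeq2, 0.020 with RLE factors, 0.024 with no filter, 0.017 with the replicate block, 0.037 with only the groups compared and 0.14 with quality weights. Between genotypes on chow *Atf4* was 0.012 with limma-voom, 0.0031 with DESeq2, 0.0029 with RLE factors, 0.0026 in the permutation test, 0.065 with quality weights, 0.088 in the 19 mice and 0.084 with limma-voom in them; *Xbp1* was 0.011 with DESeq2, 0.010 with RLE factors, 0.0059 with no filter, 0.0056 with only the groups compared, 0.062 with quality weights, and 0.045 and 0.038 in the 19 mice with edgeR and limma-voom; *Herpud1* was -0.0011 with limma-voom and -0.039 and -0.040 in the 19 mice with these tools. With quality weights *Hspa5* was -0.0086 and *Atf4* 0.21 between genotypes on HFD, *Atf4* was 0.15 for the interaction, and *Herpud1* 0.039 for the averaged effect. *Xbp1* was -0.018 and -0.029 for the averaged effect in the 19 mice. The cause of these sign changes was not tested.

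Leaving out each mouse in turn gave -0.15 to 0.025 for *Hspa5*, -0.11 to 0.0092 for *Xbp1* and -0.043 to 0.092 for *Herpud1* between diets in fl/fl mice. Between genotypes on chow it gave -0.057 to 0.12 for *Atf4*, -0.038 to 0.039 for *Xbp1*, -0.051 to 0.10 for *Herpud1* and -0.092 to 0.035 for *Dnajb9*, and on HFD -0.019 to 0.11 for *Hspa5*, -0.47 to 0.056 for *Atf4* and -0.047 to 0.17 for *Dnajb9*. For the interaction it gave -0.46 to 0.068 for *Atf4* and -0.010 to 0.20 for *Dnajb9*, and for the averaged effect -0.00047 to 0.093 for *Hspa5*, -0.017 to 0.049 for *Xbp1* and -0.054 to 0.14 for *Trib3*.

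Of the gene pairs, 1 passed over 24 mice, 0 with Spearman's rho, 0 in the 19 mice and 0 to 2 with each mouse left out (2 without HFD AKO replicate 2 or 3). Of the marker relations, 5 passed over 24 mice, 3 in the 19 mice (*Ddit3* and *Dnajb9* with immediate early genes, *Herpud1* with stromal markers) and 3 to 9 with each mouse left out (3 without HFD fl/fl replicate 1, 9 without replicate 2). With the replicate number as a block 2 pairs and 8 marker relations passed, the block gave 0 calls in every comparison of the 7 genes, and under it *Atf4* between diets in fl/fl mice (0.51) and *Dnajb9* in AKO mice (0.41) no longer reached an unadjusted p under 0.05; the numbers do not pair mice. Among the further UPR lists, the 19 mice (chosen after seeing the data) gave 1 call higher and 6 lower for ATF4 and CHOP targets between diets in AKO mice, against none over 24 mice, and 2 higher and 2 lower for chaperones, against 1 lower; in fl/fl mice they gave 1 and 2, and 3 and 2, against none. The share of all genes called went from 4.12% to 15.7% in AKO mice and from 0.173% to 11.8% in fl/fl mice. Replicate spread with 6 mice a group, and counts for *Trib3*, limit what could be seen.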
